A study of Mus musculus with 4 samples.

Results

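The genes described here are 9 genes of oligodendrocytes and myelin, and the question is where their RNAs carried sites of C-to-U editing in a list from mouse cortex. They were chosen by symbol when the list was already known, as Mal, Qk, Mbp, Mobp, Cnp, Trf, Ptgds, Enpp2 and Mag. All 9 had at least 1 site, which that choice may have fixed. Of all annotated protein-coding genes 17.6% had a site, and of 61 further oligodendrocyte genes 39.3%. Together the 9 members held 117 sites. That is 0.412% of the 28412 sites in the list, which spans 4206 gene symbols.

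The list comes from single-cell DART-seq, which uses a fusion of the cytidine deaminase APOBEC1 with a YTH domain that binds N6-methyladenosine (m6A). Cytosines beside m6A are edited and read as T. Cortex of mice aged 6 to 8 weeks at the first tamoxifen dose (20 mg/kg, every 24 h on 5 days) was taken 7 days after the last dose, dissociated with papain, fixed and barcoded by split pooling. The only group is 1 pool, sequenced as 4 sublibraries, that mixes cells of the genotypes APOBEC1-YTH and APOBEC1-YTHmut, the fusion with a mutated YTH domain, and joins replicates 1 and 2. All cells came from tamoxifen-treated animals. No label names the promoter that drives the fusion or the cell types that make it. Sites are not tied to a sample, a genotype or a cell, so no group was compared, no replicate error exists and no test was run. Each site carries a whole number, here called the site count. What it counts is not given, and read depth is unknown.

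Oligodendrocytes wrap axons of the central nervous system in myelin, a stack of membrane held together by a small set of very abundant proteins and rich in particular lipids. Much of this synthesis is local: Mbp RNA is carried in granules into the processes of the cell and translated there, under control of elements in its 3' UTR. The RNA-binding protein Quaking, encoded by Qk, binds myelin RNAs and directs their splicing, stability and export. Methylation of adenosine in RNA is laid down mainly in the last exon and in 3' UTRs, within the consensus DRACH.

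The editing sites can be seen in the RNA itself. Sites often stood close together, and stretches of Mal and Enpp2 that held 4 or more sites, each within 10 nt of the next, are shown first. These stretches come from GENCODE M21 transcripts (GRCm38, the build also called mm10), run 5' to 3' on the RNA strand with T for U, and have their listed cytosines in capitals. All lie in 3' UTRs on minus-strand genes.
Mal, 63 to 79 nt after the stop codon, chr2:127634895-127634924: ccattaaCttCctagaaCaCagaCtggatg
Mal, 117 to 128 nt after the stop codon, chr2:127634843-127634872: aaaagaaaaCaaaaCaaaCaCaaaaacaaa
Mal, near the 3' end of the transcript, chr2:127633381-127633410: tcaaCaaagCtgaaCcctaaCattaCacta
Enpp2, 77 to 101 nt after the stop codon, chr15:54839263-54839292: aaaCcaggaCataaaCaaaCaaagaaaCaa
The second Mal stretch and that of Enpp2 were 80.0% and 66.7% adenosine and repeat the letters aaac. The other Mal stretches had 33.3% and 43.3% adenosine.

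The sites with the highest count in further members are shown next, with the 5 bases of their context in capitals. The edited cytosine is the fourth of these 5 bases.
Qk, count 112, coding sequence, chr17:10273989-10274009, minus strand: gaagcagAAACGggatgtaaa
Qk, count 76, 3' UTR, chr17:10212424-10212444, minus strand: tttgtttTGACTtttttgtgt
Mag, count 48, coding sequence, chr7:30901063-30901082, minus strand: atcacccAGACGagaagaaa
Ptgds, count 35, 3' UTR, chr2:25466728-25466748, minus strand: tttgcctTGACAaagaaataa
Cnp, count 14, 3' UTR, chr11:100581158-100581178, plus strand: atgctagGGACAaacgctact
Mobp, count 5, 3' UTR, chr9:120173308-120173328, plus strand: gctgatgTAACAaccacagat
All of these cytosines follow an A that has a purine before it, a context written RAC. So does every site in the list with a known context and a count of 4 or more. Among the 6 contexts, the Qk coding site and the Mag site have a G after the cytosine, which places them outside DRACH.

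The members ranged from 36 sites in Mal to 2 in Trf. Mal had 36, Qk 30, Enpp2 19, Mbp 10, Mobp 7, Mag 6, Ptgds 4, Cnp 3 and Trf 2, where the median symbol in the list had 2. Mal thus had more sites than 96.6% of the listed symbols, Qk more than 95.3% and Enpp2 more than 91.3%, while Trf had more than 36.9%. Per kb of annotated exon the order changed. Mal had 12.96 sites per kb, Enpp2 3.29, Ptgds 2.43 and Qk 2.11, against a median of 0.457 over 4204 genes with a site. The other members lay between 0.602 in Trf and 1.47 in Mag, all above that median. Expression is not in the list, so an abundant RNA and a heavily edited RNA cannot be told apart from the number of sites.

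**Figure D1:**
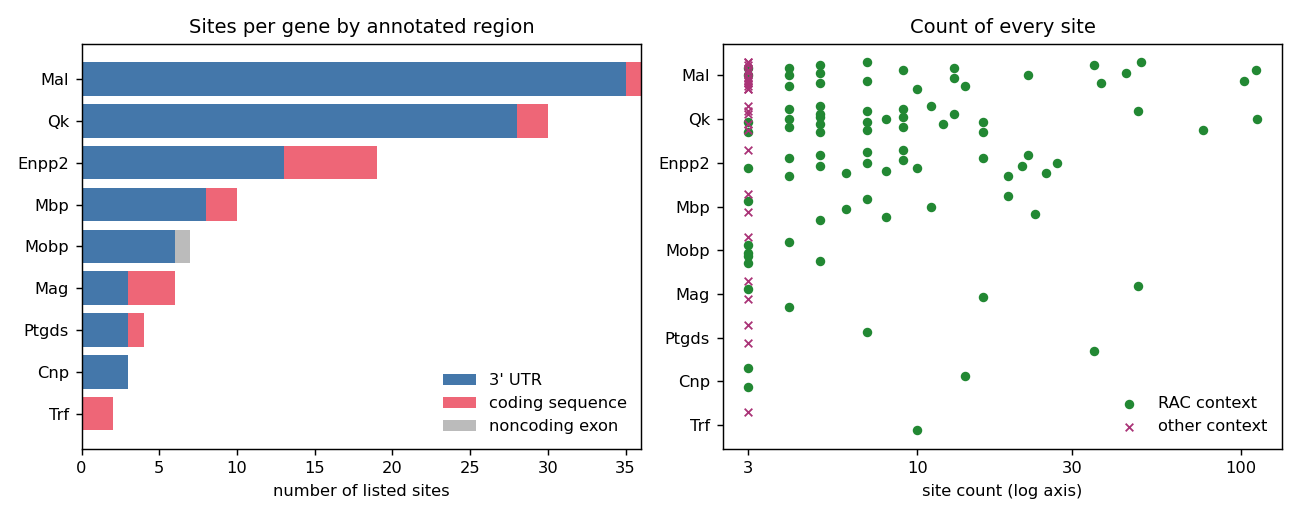
Left, number of listed sites in each of the 9 genes (horizontal axis), split by annotated region. Right, site count of every site on a log axis, with filled circles for sites in a RAC context and crosses for other contexts. Mal and Qk hold 66 of the 117 sites and all 3 counts above 100, and every cross stands at a count of 3. In the whole list, too, no site with a known context and a count of 4 or more was outside RAC.

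Counts spread widely within the larger members. The counts of the 117 sites ran from 3 to 112, and 41 sites had the lowest count of 3, which is 35.0% (95% Wilson interval 27.0 to 44.04) beside 41.05% of all sites. Counts above 23, the 90th percentile of the list, were carried by 13 member sites, or 11.1% (6.61 to 18.1), beside 9.96% of all sites. Both shares of the whole list lay inside the members' intervals. These intervals, here and below, cover counting error only and treat neighbouring sites as independent. Summed over its sites, Mal reached 548, Qk 418, Enpp2 210, Mbp 88, Mag 77, Ptgds 48, Mobp 24, Cnp 20 and Trf 13.

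Most member sites lay in 3' UTRs. The 3' UTR held 99 of 117, or 84.6% (77.0 to 90.04), beside 61.9% of all sites in the list. Coding sequence held 17, or 14.5% (9.27 to 22.04), beside 26.1%, and noncoding exons 1, or 0.855%, beside 9.75%. The list also covers noncoding RNAs, which have no 3' UTR, whereas all 9 members code for proteins. The 3' UTR shares of members and list are therefore of unlike sets of genes. The 5' UTRs and introns held 0 of 117 each, with an upper Wilson bound of 3.18%. Of all sites in the list, 5' UTRs held 1.999% and introns 0.109%, both below that bound. Without Mal, whose 35 sites in the 3' UTR are the most of any member, the 3' UTR share was 79.0%. The split differed between genes: all 3 sites of Cnp were in the 3' UTR, while both sites of Trf were in coding sequence, and Mag had 3 in each.

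Many sites stood close to the stop codon. On the longest coding transcript of each gene, 45 of 86 member sites lay within 400 nt of the stop codon on either side, or 52.3% (41.9 to 62.6), beside 30.3% of all 24708 such sites. The members were not alike in this. Within that window were 20 of 36 sites of Mal, 13 of 19 of Enpp2, 4 of 6 of Mag, 1 of 5 of Mobp and all sites of Ptgds and Cnp. For Qk, Mbp and Trf it was 0 of 7, 0 of 4 and 0 of 2. The remaining 31 sites, 23 of them in Qk, are not on the longest coding transcript, and most of them lie in alternative last exons, described with Qk and Mbp. Near the other end of the RNA, 22 of the 86 sites lay within 200 nt of the 3' end, or 25.6% (17.5 to 35.7), beside 6.82% of all sites. Of these 22, Mal had 12, Enpp2 and Ptgds 4 each and Mag 2. The 3' UTRs of Ptgds, Enpp2 and Mag are only 162, 465 and 535 nt long, so that both windows cover much of them.

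**Figure D2:**
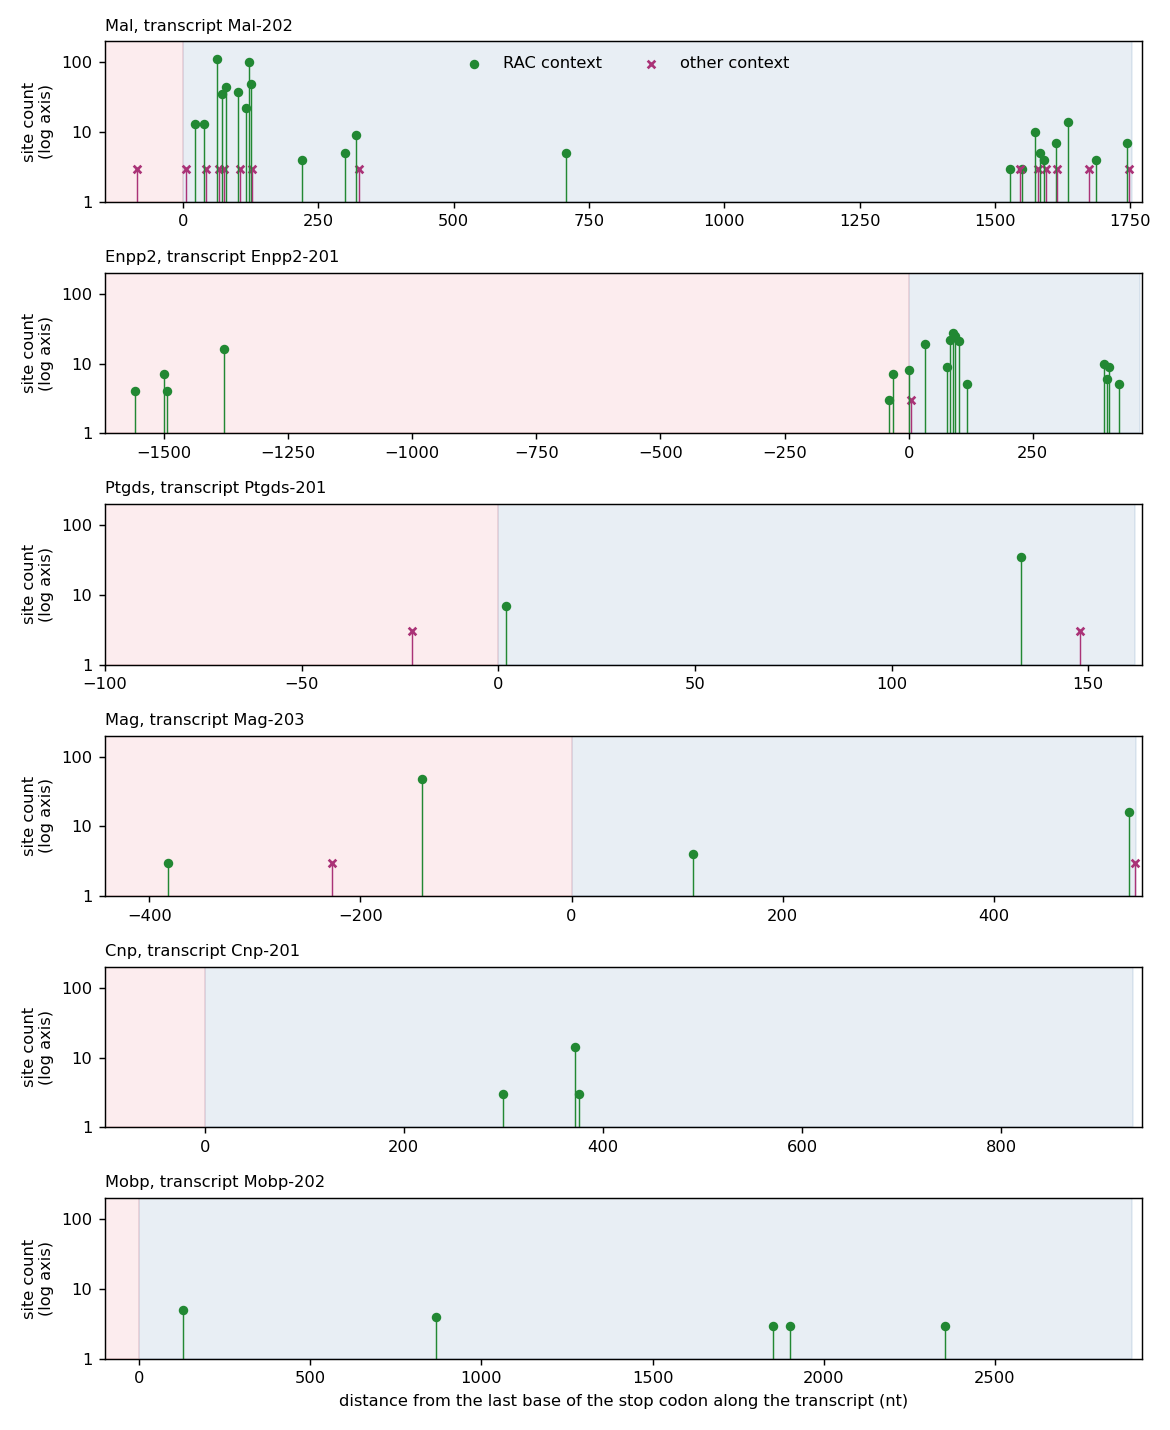
Each panel shows a gene's listed sites by distance from the last base of the stop codon along its longest coding transcript (nt, horizontal axis) and by site count (log axis), with coding sequence shaded red and the 3' UTR blue. Filled circles are RAC sites and crosses other sites. Mal has a proximal group of sites up to 326 nt after the stop codon and a distal group from 1528 to 1748 nt, with 1 site between them.

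Mal, a tetraspan membrane protein that sorts other proteins into myelin and apical membranes, carried its sites at both ends of a 3' UTR of 1754 nt. Within 326 nt of the stop codon were 19 sites with counts from 3 to 111, a median of 9 and a sum of 465. Then 1 site followed at 707 nt with a count of 5. From 1528 to 1748 nt lay 15 sites with counts from 3 to 14, a median of 3 and a sum of 75. The proximal part therefore held most of the summed count and the distal part many sites of low count. The highest counts of Mal were 111 at position 127634917, 63 nt after the stop codon, and 102 at 127634858, 122 nt after it. These were followed by 49 at 127634854, 44 at 127634901 and 37 at 127634879. Those 5 sites span 64 nt of the 3' UTR and fall into the first and second stretches printed for Mal and the gap between them. The shorter transcript Mal-201 holds 12 of the 36 sites.

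Of the 61 RAC cytosines in the Mal 3' UTR, 22 were listed, or 36.1%, a larger share than in 96.2% of the 3492 protein-coding genes that had a site and at least 10 such cytosines. Mal had 77 RAC cytosines in all its exons, and the 22 in the 3' UTR were the only ones listed. Its other 14 sites lay outside RAC, and all had a count of 3, as had every site outside RAC with a known context in the list. The 1 Mal site in coding sequence, 84 nt before the stop codon, was among these 14.

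Mbp, myelin basic protein, compacts the cytoplasmic faces of the myelin membrane, and its 10 sites fell into 3 places. Its gene lies on chromosome 18 from 82475146 to 82585637 on the plus strand. Transcripts with the shared last exon held 6 sites. Of these, 3 lay in that exon's 3' UTR, 1282, 1374 and 1467 nt after the stop codon, with counts of 6, 19 and 8, the last being 14 nt from the end of Mbp-201. The other 3, with counts of 3, 7 and 3, lay from 82572882 to 82572899 in an exon that 14 annotated transcripts share. They are coding in Mbp-201, and the last of them is in the 3' UTR of another transcript. The remaining 4 sites lay in the long last exon of the transcript Mbp-205 and in no exon of any other. Their distances from its stop codon were 480, 537, 2768 and 2998 nt, with counts of 11, 23, 5 and 3. The highest count in Mbp therefore stood in an alternative last exon, and not in the 3' UTR of the transcripts with the shared end. The place of these 4 sites is intronic for the other transcripts that span it, and whether spliced or unspliced RNA gave the reads was not tested.

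Mobp, a basic protein of the myelin sheath, had 7 sites of low count. In the 3' UTR of Mobp-202 its counts were 5, 4, 3, 3 and 3, at 128, 868, 1852, 1902 and 2354 nt after the stop codon. A further site with a count of 3 lay in the 3' UTR of Mobp-204, an alternative ending, and 1 in a noncoding exon. No 2 sites of Mobp were within 10 nt of each other, unlike those of Mal.

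Cnp, an enzyme of the cytoplasmic channels in myelin, had 3 sites, at 300, 372 and 376 nt after the stop codon. Their counts were 3, 14 and 3, and all were RAC sites. They made up 16.7% of the 18 RAC cytosines in its 3' UTR.

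Mag, an adhesion protein on the myelin membrane next to the axon, had 6 sites with counts of 3, 3, 48, 4, 16 and 3 in the order of the RNA. The site with a count of 48 stood in coding sequence, 142 nt before the stop codon, at position 30901072 of chromosome 7. It was the highest count of any coding site in the members other than Qk. The site with a count of 16 lay in the 3' UTR, 528 nt after the stop codon and 7 nt from the annotated 3' end.

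Qk has alternative 3' ends, and its sites were spread over them. Its transcripts code for proteins that share their RNA-binding part and differ in their last residues, known as QKI-5, QKI-6 and QKI-7. In GENCODE M21, Qk-204 has 341 codons before the stop, Qk-201 has 325 and Qk-206 has 319, the lengths of QKI-5, QKI-7 and QKI-6. The last exon of Qk-201 held 23 sites, and 17 of the 30 Qk sites were in no other transcript. Qk-206 shared 6 of the 23, whereas the last exon of Qk-204 held 5 other sites, although its 3' UTR of 7014 nt is longer than the 5252 nt of Qk-201. On Qk-201, 15 sites lay within 400 nt of the stop codon.

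Of the RAC cytosines in the 3' UTR, 4 of 165 were listed on Qk-204 and 19 of 143 on Qk-201. The highest counts in the last exon of Qk-201 were 48, 500 nt after its stop codon, and 76, 2997 nt after it. The site with 76 is also on Qk-206, 1735 nt after that transcript's stop codon. In the last exon of Qk-204, the 5 counts were 5, 5, 7, 3 and 16, from 655 to 1026 nt after the stop codon. The 2 coding sites are shared by all 3 transcripts, and the site with a count of 112, at position 10273999 of chromosome 17, is the highest in any member. It ranked 483 by count in the whole list. The 17 sites found only on Qk-201 are in no exon of Qk-204 or Qk-206, and spliced and unspliced RNA cannot be told apart in the list.

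**Figure D3:**
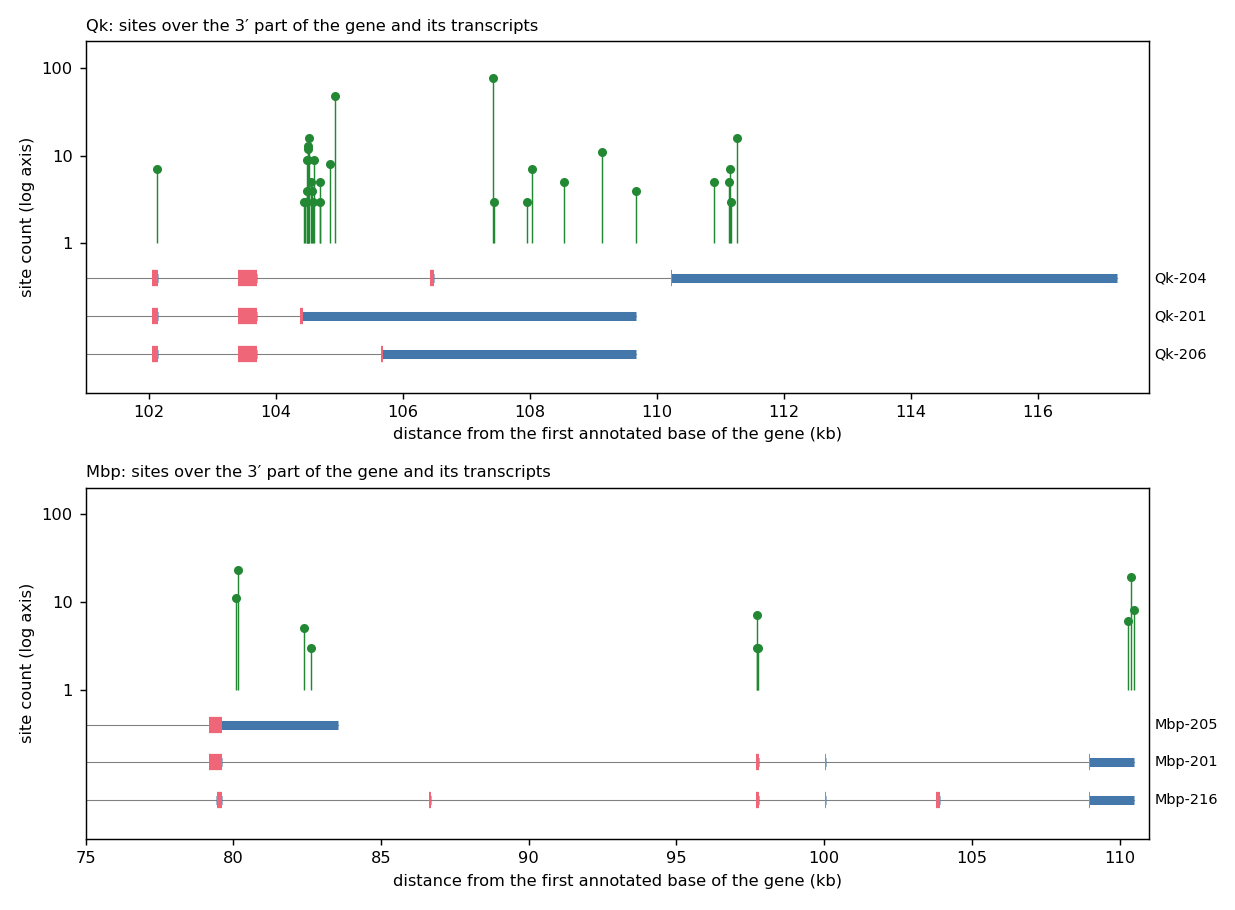
Site counts (log axis) over the 3' part of Qk (top) and Mbp (bottom) against distance from the first annotated base of the gene (kb), above exons of 3 transcripts of each gene, with coding sequence in red and untranslated exon in blue. The Qk coding site with a count of 112 lies outside the plotted part. The last exon of Qk-201 has 23 sites and that of Qk-204 has 5, and 4 Mbp sites stand over the last exon of Mbp-205.

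The secreted members were unlike each other. Enpp2, or autotaxin, makes the signalling lipid lysophosphatidic acid, and had 19 sites, of which 13 lay in the 3' UTR and 6 in coding sequence. In the stretch printed for Enpp2 the counts were 9, 22, 27, 25 and 21 along the RNA, all in RAC. A second set of 3 sites, 394 to 404 nt after the stop codon, had counts of 10, 6 and 9. Of the 17 RAC cytosines in its 3' UTR 12 were listed, or 70.6%, a larger share than in 99.3% of the 3492 genes. Its coding sites had counts of 4, 7, 4, 16, 3 and 7, all below the highest in the 3' UTR.

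Ptgds, the synthase of prostaglandin D2, had 4 sites, with counts of 3 and 7 at 22 nt before and 2 nt after the stop codon, and 35 and 3 at 133 and 148 nt after it. Of its 4 RAC cytosines in the 3' UTR 2 were listed. Trf, the iron carrier transferrin, had 2 sites, both coding. Their counts were 3 and 10, at 963 and 891 nt before the stop codon. None of the 8 RAC cytosines in the 3' UTR of Trf was listed.

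Over all members, 53 of 427 RAC cytosines in the 3' UTRs of the longest coding transcripts were listed, or 12.4%, beside 5.40% over the 3492 genes. The median member had 12.5% and the median gene 2.02%. The pooled share rests on the makeup of the set: it was 8.47% without Mal and 18.7% without Qk. On the transcript with the most sites in each gene it was 18.4%. That transcript is picked by its sites, whereas the 5.40% is on longest coding transcripts. Read depth at the cytosines that were not listed is unknown.

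The sequence context of the member sites was close to that of the list. RAC held 89 of 117 sites, or 76.1% (67.6 to 82.9), beside 77.8% of all sites. All 76 member sites with a count of 4 or more were RAC, as were all such sites with a context in the list, so the list holds no other context at these counts. Of the 41 sites with a count of 3, 13 were RAC, or 31.7% (19.6 to 47.0), beside 45.8%. Among RAC sites 69 of 89 were DRACH, or 77.5% (67.8 to 84.96), beside 71.0% of all RAC sites and 77.2% of the 1327 RAC cytosines in the members' own exons. The DRACH share of the listed sites was thus close to that of the members' own sequence.

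Among the contexts, AAACA was the most frequent, with 14 of 89 RAC sites, or 15.7% (9.61 to 24.7), in Mal, Qk and Enpp2. It made up 7.16% of the members' RAC cytosines, and its share of all RAC sites in the list was 13.9%. The median count of these 14 sites was 17. Most of them stood in A-rich repeats: the second Mal stretch, that of Enpp2, and a Qk stretch of 83.3% adenosine with 5 sites. The AAACA share thus rests largely on these stretches. The context TAACT had 6 sites in Mal, Qk and Enpp2, or 6.74% beside 3.02% in the list, and among them was the site with a count of 111 in Mal. GGACT, a classical m6A context, had 1 site, in Mobp, with a count of 3. That is 1.12% (0.199 to 6.09) of the members' RAC sites, beside 1.72% in the list. In coding sequence 6 of 12 RAC sites had a G after the cytosine, with an interval of 25.4% to 74.6%, beside 28.9% in the list, while in 3' UTRs it was 6 of 77, or 7.79%, beside 9.80%. The coding sites of Qk with counts of 112 and 7, of Mag with 48 and 3, of Trf with 10 and of Enpp2 with 7 were the 6 with that G.

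A neighbour within 10 nt was found for 53 of 117, or 45.3% (36.6 to 54.3), beside 48.3% of all sites. Runs of 4 or more such neighbours held 24 member sites, or 20.5% (14.2 to 28.7), beside 11.6%. These 24 came from 3 genes, with 14 in Mal and 5 each in Qk and Enpp2.

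Because Qk encodes a protein that binds ACTAA in RNA, the surroundings of the sites were searched for that motif on the RNA strand. It lay within 50 nt of 16 of 117 member sites, or 13.7% (8.60 to 21.1), beside 8.91% of all exonic sites. Among sites in 3' UTRs alone it was near 14 of 99, or 14.1% (8.61 to 22.3), beside 10.4% in the list. Of windows of 101 nt over the 3' UTRs of all longest coding transcripts, 7.94% held it. Mal supplied 12 of the 16, all in its distal part, and without Mal the share was 4.94%. The share was thus set by Mal. Qk and Enpp2 supplied 2 each and the other members 0. The Mal 3' UTR holds 5 matches, at 1234, 1438, 1492, 1596 and 1686 nt after the stop codon. The last pair is shown with the motif in capitals. At 1596 nt a listed site with a count of 3 stands directly before the motif, and at 1686 nt the C of the motif is itself a listed site, with a count of 4.
Mal, 1596 nt after the stop codon, chr2:127633370-127633394, minus strand: ctaacattacACTAAccagcagctc
Mal, 1686 nt after the stop codon, chr2:127633280-127633304, minus strand: aggaagggtgACTAAgaggaattgc
A match says only that these letters are present.

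Of the other genes of the lineage, fewer had sites. Over all annotated protein-coding genes 17.6% had at least 1 site (3859 of 21924), and all 9 members did. The members were chosen when the list was already known. Of 61 further oligodendrocyte genes, 24 had a site, or 39.3%, with a median of 2 among those 24. Of 20 genes of myelin structure, 5 of them members, 13 had a site. Opalin and Ermn had 0. Of 15 genes of myelin lipids 7 had a site, led by the desaturase Scd2 with 37, the member Enpp2 with 19 and the sterol enzyme Hmgcs1 with 10, while Fa2h, Aspa and Galc had 0. Of 24 other markers, including Qk, Trf and Ptgds, 11 had a site, among them the tubulin Tubb4a with 11 and Apod with 5. Of 11 transcription factors of the lineage only Olig1, with 2, and Tcf7l2, with 1, had a site, or 18.2%, near the share of all genes. Sox10, Olig2 and Myrf had 0.

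Several members are also made outside oligodendrocytes. Qk is made in astrocytes, and Enpp2, Ptgds and Trf in choroid plexus or leptomeninges. Of 10 choroid plexus markers 1 had a site, Ttr with 8, and of 10 markers of leptomeninges 1, Col1a2 with 5. Among 20 genes of astrocytes, 17 were listed, at a median of 14 sites and led by Slc1a2 with 251, and of 14 endothelial markers 13, with a median of 9. Of 10 precursor markers 2 had a site, Tnr with 20 and Ptprz1 with 17, while Pdgfra and Cspg4 had 0. The part of these cell types in the members' sites was not tested, since the list names no cell.

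**Figure D4:**
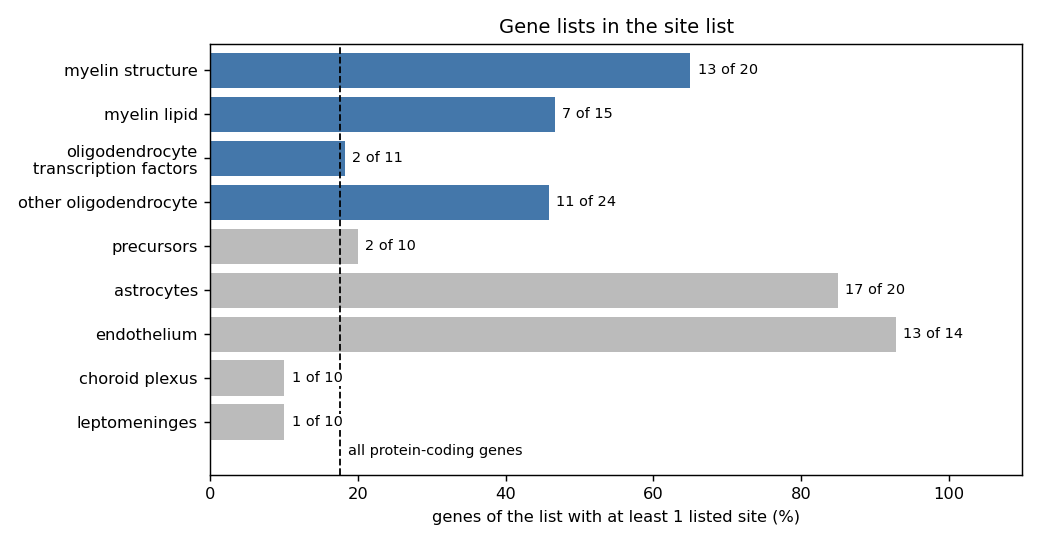
Percent of the genes in each list that had at least 1 listed site, with the number of genes beside each bar, blue for the oligodendrocyte lists and grey for markers of other cells. The dashed line marks 17.6%, the share over all annotated protein-coding genes. The bars of choroid plexus and leptomeninges end below the line and that of oligodendrocyte transcription factors near it.

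At 19 sites the edited cytosine was coding in at least 1 transcript, and reading it as T would change the codon as follows. It would leave the amino acid as it is at 7 sites and change it at 10, among them the Qk site with a count of 112 and the Mag site with 48. At 2 sites, in Enpp2 with a count of 4 and in Mag with 3, it would give a stop codon. In DART-seq the edit is made by the introduced deaminase, which would change only edited copies of the RNA. Whether each of these sites arose in that way was not tested. No site of another symbol, on either strand, lay inside any of the 9 genes, so the members' sites are not shared with an overlapping listed gene.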

How the data were processed

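A single deposited list of C-to-U sites was used, giving each site's position, strand and gene symbol and a whole number. Reads were aligned with STAR 2.7.5 on mm10, per the submitters' processing notes. The series text names Bullseye as the site caller for sorted neuronal nuclei, and no source names it for this list. The authors deposited the number with no header, and it was treated as an unnormalized count. No source states the filters, the depth or how cells with the mutant fusion were used. Sites were placed on GENCODE M21 by symbol and strand (27873), older symbol (391) or position (105), and 43 were not placed. A site in several kinds of region went to the 3' UTR first, then to CDS (stop codon included), then to the 5' UTR, and last to noncoding exon or intron. Of 28338 exonic sites, 28337 had a C. On sites simulated along the longest coding transcripts of 200 genes, placement returned the region on that transcript and the context for 1000 of 1000. This checks only the conversion of positions. It does not check the order of regions used where transcripts differ, on which the 3' UTR shares rest. Shares carry Wilson intervals (scipy 1.17.1). No test was run, as the list has no replicates. The text names all members, their highest-count sites, and in other lists up to 3 genes with the most sites and some with none. Other named genes were chosen after their values were seen. Some items are not reported here. Members, lists and measures were chosen with earlier results of these data known.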

Additional observations from a re-analysis of the deposited data

How the results depend on the processing

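With only sites of a count of 4 or more, the members held 76 sites. Within 200 nt of the stop codon lay 39.5% of the sites on the longest coding transcripts. The RAC share was 83.1% after merging sites within 10 nt. The listed share of RAC cytosines in 3' UTRs was 18.4% on the transcript with the most sites, 8.47% without Mal and 18.7% without Qk, and the ACTAA share was 4.94% without Mal. The transcript with the most sites and the ACTAA share without Mal were chosen after seeing the data. For the narrower window, the merging and that transcript, no value of the whole list is given. These values thus do not show whether the differences from the list hold under those settings. Of the other values, 12 under other settings and 52 with 1 member left out stayed within 1.5 times a count or within the interval of a share. No paired analysis was possible because sites carry neither group nor replicate. Read depth is unknown, so a gene with few sites may be thinly read.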
